A study of Mus musculus with 9 samples.

Results

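The miR-10, miR-99, miR-100 and miR-125 families were followed through 7 mature microRNAs (miRNAs), namely miR-10a-5p, miR-10b-5p, miR-99a-5p, miR-99b-5p, miR-100-5p, miR-125a-5p and miR-125b-5p. They were taken by name (mmu-miR-10a-5p, mmu-miR-10b-5p, mmu-miR-99a-5p, mmu-miR-99b-5p, mmu-miR-100-5p, mmu-miR-125a-5p and mmu-miR-125b-5p) from a table of 946 mature miRNAs, and all 7 were found and passed the filter on low counts that left 360 miRNAs for testing. Small RNA was sequenced from livers of wild-type C57 BL6 mice at 8 weeks of age, in 3 groups of 3 libraries. Control mice were given saline. APAP mice were given 500 mg/kg acetaminophen (APAP), a drug that injures the liver at high dose, into the peritoneum. The dmPGE2+APAP mice were given 300 µg/kg dmPGE2, which is prostaglandin E2 with added methyl groups, by the same route 1 h ahead of the same APAP dose. Livers were taken 6 h after APAP. The labels list neither a group with dmPGE2 alone nor a vehicle for dmPGE2, and they leave unsaid whether the libraries come from separate animals. The spread behind each p-value is that between these libraries and may be technical.

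A miRNA represses messenger RNAs that pair with its seed, the bases near its 5′ end, while it is held in an Argonaute protein. The miR-10 genes sit inside the Hox gene clusters, which pattern the body axis, and miR-10a has been described in human endothelial cells as a brake on NF-kB signalling. The miR-99 and miR-100 miRNAs are known repressors of the growth kinase mTOR in human cells, and miR-99a is among the abundant miRNAs of human liver. The miR-125 miRNAs are the mammalian relatives of lin-4, the developmental timing RNA of the worm Caenorhabditis elegans. In both mammals and flies, genes of the miR-100 and miR-125 families lie in clusters with a let-7 gene.

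The mature sequences are printed because the seed sorts the 7 miRNAs into 3 groups and because some members differ so little that a read could be assigned to either. RefSeq supplied them for GRCm38.p6 (mm10 by its other name), and they are written 5′ to 3′ with the seed (bases 2 to 8) in capitals.
miR-10a-5p: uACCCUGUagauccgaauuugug
miR-10b-5p: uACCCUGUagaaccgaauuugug
miR-99a-5p: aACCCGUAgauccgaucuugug
miR-99b-5p: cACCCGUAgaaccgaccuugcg
miR-100-5p: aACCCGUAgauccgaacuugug
miR-125a-5p: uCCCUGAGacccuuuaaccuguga
miR-125b-5p: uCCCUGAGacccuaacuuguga
Both miR-10 members carry the seed ACCCUGU, the 3 miR-99 and miR-100 members carry ACCCGUA, and both miR-125 members carry CCCUGAG. Counted from the 5′ end, miR-10a-5p and miR-10b-5p differ at 1 of 23 bases (U12A). miR-99a-5p and miR-100-5p differ at 1 of 22 bases (U16A), and miR-99a-5p and miR-99b-5p at 4 (A1C, U11A, U16C and U21C). The miR-125 members share their first 13 bases. The number of mismatches allowed in mapping and the treatment of reads with several matches are unknown from the sources used here, so the levels of miR-10a-5p against miR-10b-5p, and of miR-99a-5p against miR-100-5p, are uncertain to that extent. No member's row (0 of 7) held the same reads as another row of the table, within 5% or 2 reads in every library.

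The hairpin of miR-10a lies on chromosome 11 at 96317165 to 96317274 of GRCm38.p6, inside the annotated gene Hoxb3. That of miR-10b lies on chromosome 2 at 74726070 to 74726137, inside Hoxd3 and Hoxd4. The other members come from 3 clusters, each of a miR-99 or miR-100 gene, a let-7 gene and a miR-125 gene on the plus strand. Mir99a, Mirlet7c-1 and Mir125b-2 span 77598936 to 77646339 on chromosome 16, which is 47404 bases. Mir100, Mirlet7a-2 and Mir125b-1 span 41531425 to 41582002 on chromosome 9, which is 50578 bases, within the host gene Mir100hg. Mir99b, Mirlet7e and Mir125a lie within 686 bases on chromosome 17, from 17830194 to 17830879, and the annotated hairpins of the latter pair overlap the gene Spaca6. miR-125b-5p has the same sequence from both of its genes, so its reads add up the 2 loci. The chromosome 17 span starts at the mature miR-99b-5p and the chromosome 16 span ends at the mature miR-125b-2-3p, while the other ends are those of hairpins, so the former spans leave out a few bases of a hairpin.

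Libraries held 1038799 to 10483460 reads, the fewest in dmPGE2+APAP replicate 2. The 7 miRNAs took 12671 to 156955 of those reads, which was 1.09% ± 0.358 (SD, n = 3) of a Control library, 1.11% ± 0.0296 of an APAP library and 1.198% ± 0.0348 of a dmPGE2+APAP library. Two-sided exact permutation of the shares gave p = 1 for APAP against Control, 0.1 for dmPGE2+APAP against APAP, and 0.6 for dmPGE2+APAP against Control, and 3 against 3 libraries cannot give less than 0.1. The hepatocyte markers miR-122-5p, miR-192-5p, miR-194-5p and miR-148a-3p were all present, with a summed level of 375340 to 524809 CPM in Control, 328494 to 388153 after APAP and 353035 to 392627 in dmPGE2+APAP. The sum of the 3 red-cell markers (miR-451a, miR-144-3p and miR-486a-5p) was separate in all 3 groups. It was 418 to 516 CPM in Control, 709 to 1350 after APAP and 338 to 366 in dmPGE2+APAP. Most of it was miR-451a. Taken singly, miR-144-3p in dmPGE2+APAP overlapped both other groups, and miR-486a-5p overlapped between Control and dmPGE2+APAP. CPM are reads scaled to a common library size, after scaling of the libraries by TMM, a method that takes most miRNAs as unchanged. Scaled by library totals alone, the red-cell sums of Control and dmPGE2+APAP overlapped. The mature forms are 22 to 24 bases long and were counted as whole reads, so their CPM were compared without a length term.

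miR-99a-5p was the most abundant of the 7, at a mean of 5050 CPM over the 9 libraries, rank 17 of the 946 miRNAs. miR-10a-5p followed at 3703 CPM (rank 20), then miR-100-5p at 1491, miR-99b-5p at 534, miR-125b-5p at 365, miR-125a-5p at 93.5 and miR-10b-5p at 34.4 (rank 132). The first 2 of this order overlapped in range, although miR-99a-5p was the higher in 8 of 9 libraries. Their order was turned only in Control replicate 3. The ranges of miR-125a-5p and miR-10b-5p also overlapped, with miR-125a-5p above in 9 of 9 libraries, while the other neighbours in the order did not overlap. By seed, the miR-99/100 group held 58.7% ± 5.07 (SD, n = 3) of the members' reads in Control, 64.5% ± 4.56 after APAP and 66.5% ± 4.33 in dmPGE2+APAP. The miR-10 group held 37.9% ± 5.31, 31.1% ± 4.64 and 29.0% ± 4.54, and the miR-125 group 3.38% ± 0.622, 4.44% ± 0.541 and 4.47% ± 0.416.

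**Figure D1:**
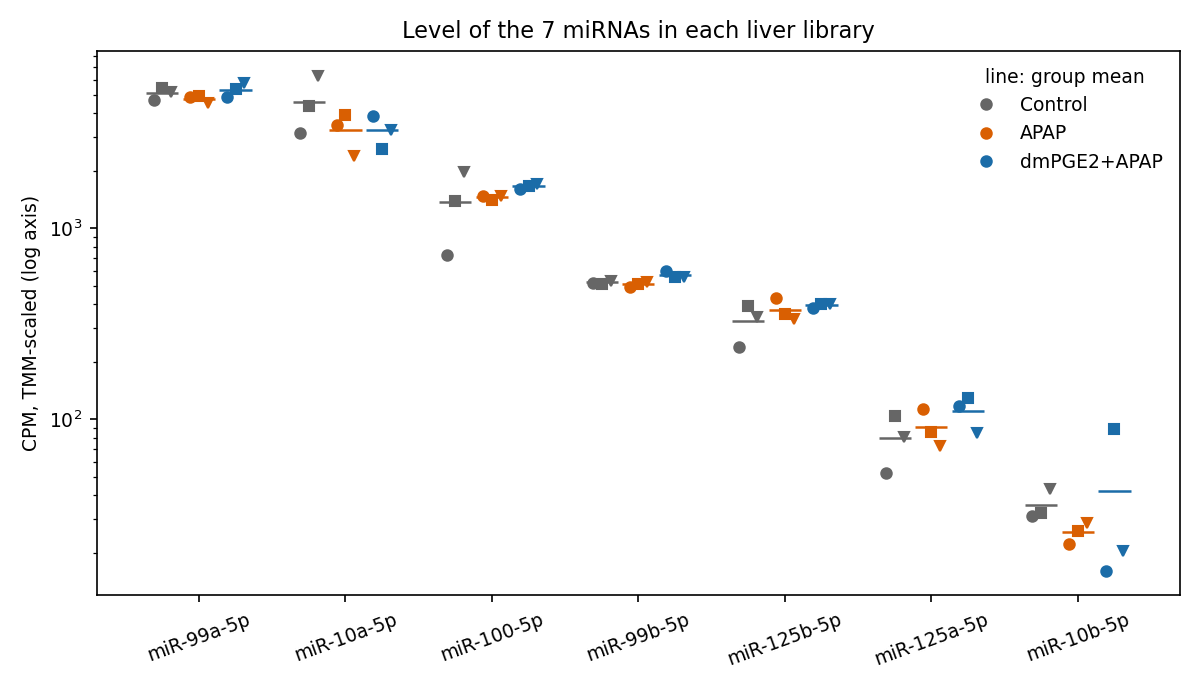
Level of each of the 7 miRNAs (CPM scaled by TMM, log axis) in the 9 libraries, with replicates 1, 2 and 3 as circles, squares and triangles, groups by colour and the group mean as a line. The 9 libraries of miR-99b-5p lie between 494 and 598 CPM, while those of miR-10b-5p run from 16.1 to 89.5 CPM.

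In the miR-10 group, miR-10a-5p stood at 3136, 4338 and 6302 CPM in Control replicates 1 to 3, at 3486, 3907 and 2396 after APAP and at 3871, 2614 and 3275 in dmPGE2+APAP. Control replicate 3 was the highest library, and the 3 groups overlapped. miR-10b-5p, known from human breast cancer as a promoter of cell migration, stood at 31.1, 32.3 and 43.0 CPM in Control, at 22.3, 26.0 and 28.7 after APAP and at 16.1, 89.5 and 20.4 in dmPGE2+APAP. Each APAP value of miR-10b-5p lay below each Control value, and the dmPGE2+APAP libraries lay on both sides of all others. Scaled by library totals in place of TMM, the APAP and Control values of miR-10b-5p overlapped.

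Of the miR-99/100 group, miR-99a-5p stood at 4664, 5397 and 5178 CPM in Control, at 4848, 4934 and 4502 after APAP and at 4861, 5338 and 5732 in dmPGE2+APAP, with overlap of all groups. miR-99b-5p stood at 519.5, 512 and 532 CPM in Control, at 494, 512 and 526 after APAP and at 598, 556 and 555 in dmPGE2+APAP, whose 3 libraries lay above the other 6. miR-100-5p stood at 723, 1391 and 1978 CPM in Control, at 1473, 1414 and 1476 after APAP and at 1602, 1668 and 1696 in dmPGE2+APAP. The Control libraries of miR-100-5p enclosed both other groups, which did not overlap each other. Scaled by library totals in place of TMM, APAP and dmPGE2+APAP overlapped for both miR-99b-5p and miR-100-5p.

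In the miR-125 group, miR-125a-5p stood at 52.4, 104 and 81.3 CPM in Control, at 113, 86.2 and 72.7 after APAP and at 117, 129.5 and 85.3 in dmPGE2+APAP. miR-125b-5p stood at 238, 394 and 345 CPM in Control, at 431, 355 and 337 after APAP and at 382, 403 and 399.9 in dmPGE2+APAP. Groups overlapped for both, and Control replicate 1 was the lowest library for each.

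A pair of libraries stood apart in single members. In Control replicate 1, miR-100-5p, miR-125b-5p and miR-125a-5p were the lowest of the 9 libraries, with the next library 1.92, 1.41 and 1.39 times higher. Of the 206 tested miRNAs with a mean of at least 10 CPM, only 4 (1.94%) were lowest there by 1.3 times or more, a margin chosen after the values were seen. They were these 3 members and miR-150-5p, a lymphocyte miRNA, which held 1.91 CPM there against 13.9 to 24.7 in the other libraries. The summed level of the 4 muscle markers was 2700 CPM in that library against 315 to 1087 in the other 8, and none of these markers (0 of 4) was at 0 in any library. Most of that sum was miR-1a-3p, at 2544 CPM. miR-133a-3p and miR-499-5p were also highest in that library, but miR-206-3p was not, at 0.88 CPM (6 reads). The part of miR-150-5p or of the muscle markers in the low values of the members was not tested.

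In dmPGE2+APAP replicate 2, the shallowest library, miR-10b-5p had 105 reads, and its 89.5 CPM (exact Poisson 95% interval 73.2 to 108, counting error only) was 2.08 times the highest other library. Of the same 206 miRNAs, 3 were over 2 times the highest other library there. miR-10b-5p was the second of these after miR-200c-3p, an epithelial miRNA, at 147 CPM against 16.6 to 24.9 in the other libraries, and before miR-676-3p. The summed level of the 5 epithelial markers, miR-200c-3p among them, was 1008 CPM there against 477 to 881 elsewhere. The abundant miR-200a-3p stood at 423 CPM there and 409 in Control replicate 3, and miR-200b-3p was lower there (389) than in Control replicate 3 (419). The scarcer miR-429-3p and miR-141-3p were highest there, at 36.6 and 11.9 CPM. miR-10b-5p equalled 3.42% of the reads of miR-10a-5p in that library and 0.416% to 1.198% in the others. Whether epithelial cells, depth or the assignment of miR-10a-5p reads had a part in this value was not tested.

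**Figure D2:**
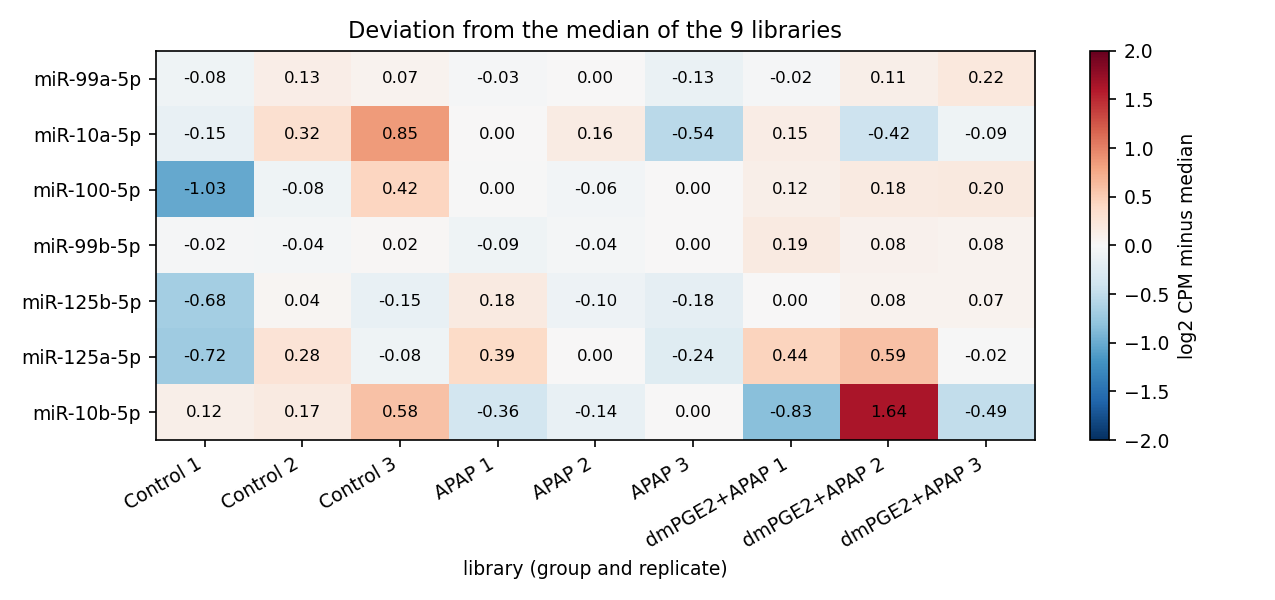
Log2 CPM of each member minus its own median over the 9 libraries, in columns by library, blue for lower and red for higher. miR-100-5p is lowest in Control replicate 1 (-1.03), with miR-125b-5p (-0.68) and miR-125a-5p (-0.72) low in the same column, and miR-10b-5p reaches 1.64 in dmPGE2+APAP replicate 2.

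Across all 9 libraries, miR-99b-5p and miR-99a-5p were among the steadiest miRNAs in the liver. The standard deviation of log2 CPM was 0.08 for miR-99b-5p, the lowest of the 206 miRNAs with a mean of at least 10 CPM, and 0.11 for miR-99a-5p, rank 3 from the lowest. The median over the 206 was 0.32. Scaling by library totals in place of TMM gave standard deviations of 0.23 and 0.20, ranks 35 and 26, so the lowest ranks depended on the scaling. miR-125b-5p was also below the median, at 0.25 (rank 58). The other members were above it, at 0.41 for miR-10a-5p and miR-100-5p, 0.40 for miR-125a-5p and 0.72 for miR-10b-5p, rank 192.

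The ratio of miR-99b-5p to miR-99a-5p, which does not depend on scaling, ran from 0.0949 to 0.123 over the libraries. Its log2 standard deviation was 0.12, a value reached or undercut by 0.27% of the 21115 pairs among the 206 miRNAs, where the median was 0.49. The ratios of miR-125a-5p to miR-125b-5p (0.21) and of miR-99a-5p to miR-125b-5p (0.22) were next, at 4.03% and 4.22% of pairs. The former pair shares a seed and lies on different chromosomes, and the latter shares the chromosome 16 cluster. miR-99b-5p and miR-125b-5p, which share neither seed nor cluster, followed at 0.25 (7.95% of pairs). After them came miR-100-5p and miR-125b-5p of the chromosome 9 cluster, at 0.26 (8.64%). miR-99a-5p and miR-100-5p, with 1 seed, had 0.37 (26.4%). The pair from the compact chromosome 17 cluster, miR-99b-5p and miR-125a-5p, had a standard deviation of 0.39 (30.2% of pairs), and the ratio of miR-10a-5p to miR-10b-5p had 0.87 (88% of pairs). These shares are a description of 9 libraries and carry no test.

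**Figure D3:**
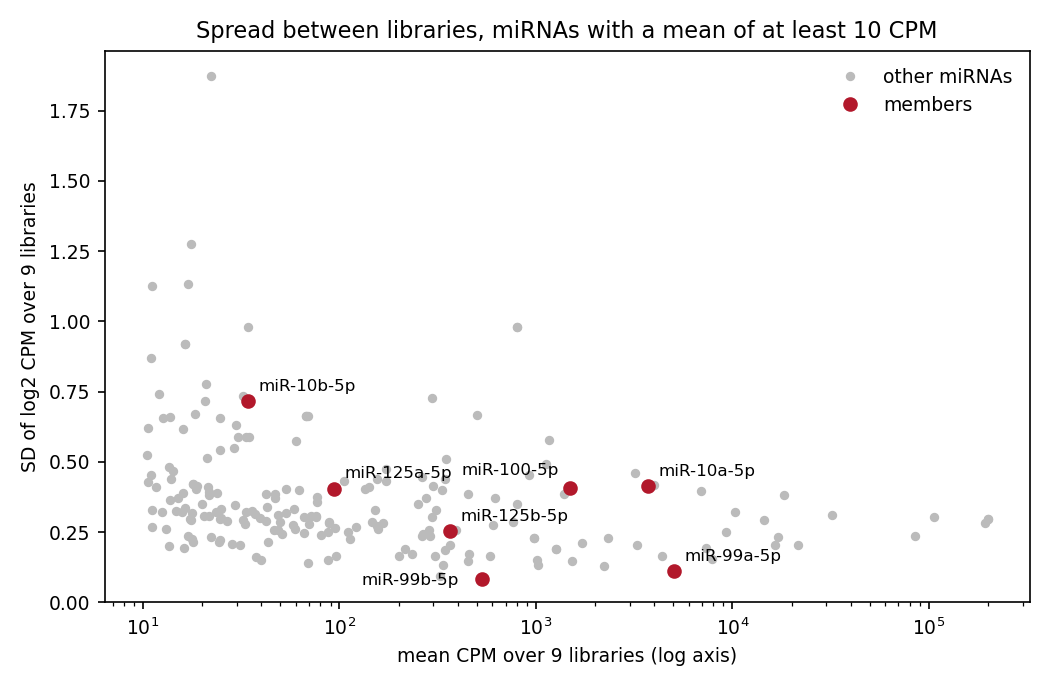
Standard deviation of log2 CPM over the 9 libraries against the mean CPM (log axis) for 206 miRNAs, with the 7 members in red. miR-99b-5p (0.08) and miR-99a-5p (0.11) lie at the lower edge and miR-10b-5p (0.72) lies above most of the miRNAs.

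The first comparison was APAP against Control, which asks how the injured liver differed 6 h after the drug. miR-10a-5p averaged 3263 ± 780 CPM (SD, n = 3) in APAP and 4592 ± 1598 in Control, a log2 change of -0.49 (SE 0.26, 95% interval -1.04 to 0.05) (adjusted p 0.526 in the edgeR quasi-likelihood fit, Benjamini-Hochberg over all 360 miRNAs). miR-10b-5p had a similar value of -0.47 with a wider interval (SE 0.53, -1.66 to 0.72), from 35.5 ± 6.55 CPM in Control and 25.7 ± 3.21 in APAP. The miR-125 members lay on the other side of 0, at 0.20 (SE 0.21, -0.25 to 0.65) for miR-125b-5p and 0.19 (SE 0.26, -0.37 to 0.75) for miR-125a-5p. miR-100-5p stood at 0.09 (SE 0.27, -0.47 to 0.66). miR-99a-5p and miR-99b-5p had the narrowest intervals, at -0.09 (-0.46 to 0.27) and -0.03 (-0.40 to 0.34), though library totals turned both to 0.16 and 0.22. Fewer cells of a type and less RNA per cell cannot be told apart in whole liver.

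Of the 7 members, 0 were called at an adjusted p of 0.05 and 0 had an unadjusted p of 0.05 or less, where 0.833% and 9.72% of all tested miRNAs did. DESeq2 and limma-voom also called 0. edgeR's adjusted p ran from 0.526 to 0.978 over the members. Their median log2 change was -0.03 against -0.05 over all tested miRNAs, and 3 of 7 were above 0 against 44.7% of all. miR-10b-5p was the 1 member whose groups did not overlap, all lower in APAP, as were 8.06% of all tested miRNAs (8.61% lay wholly higher). By library totals in place of TMM, its groups overlapped. Single Control libraries moved the values in both directions. Without Control replicate 3, miR-10a-5p went from -0.49 to -0.17, miR-10b-5p from -0.47 to -0.28 and miR-100-5p from 0.09 to 0.49. Without Control replicate 1, miR-100-5p became -0.18, miR-125a-5p 0.01 and miR-125b-5p 0.06. Without Control replicate 2, the miR-125 members became 0.44 (miR-125a-5p) and 0.36 (miR-125b-5p).

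dmPGE2+APAP was next set against APAP, to ask what the prior dose of dmPGE2 altered. miR-100-5p averaged 1655 ± 48.1 CPM with dmPGE2 and 1454 ± 35.1 without (SD, n = 3), and miR-99b-5p 570 ± 24.2 and 511 ± 15.7. Both were higher in every dmPGE2+APAP library than in every APAP library, as were 5.83% of all tested miRNAs in that direction. Scaled by library totals in place of TMM, both overlapped between these groups. The summed red-cell markers were lower in every dmPGE2+APAP library than in every APAP library, and their part in these values was not tested. The log2 changes of miR-100-5p and miR-99b-5p were 0.19 (SE 0.27, 95% interval -0.38 to 0.75) and 0.16 (SE 0.17, -0.21 to 0.53). In edgeR the spread of a miRNA is estimated over all 3 groups and drawn towards that of miRNAs of like abundance, and with it neither passed, at an adjusted p of 0.923 and 0.913. In an edgeR fit of only the 2 groups compared, the SE were 0.14 and 0.15, and the adjusted p was 0.816 for both. miR-99a-5p, which shares their seed, stood at 0.16 (SE 0.17, -0.21 to 0.52) with overlap of the groups.

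Of the remaining members, miR-125a-5p stood at 0.28 (SE 0.27, -0.29 to 0.85), miR-125b-5p at 0.08 (SE 0.21, -0.38 to 0.53) and miR-10a-5p at -0.004 (SE 0.26, -0.55 to 0.54). miR-10b-5p had the largest value, 0.60 (SE 0.55, -0.64 to 1.83), and it rested on dmPGE2+APAP replicate 2, since without that library it was -0.45 (SE 0.29), with edgeR's adjusted p at 0.989, and without dmPGE2+APAP replicate 1 it was 1.03. Without APAP replicate 1, miR-125a-5p became 0.47 and miR-125b-5p 0.20, and without APAP replicate 3 they became 0.18 and 0.05. Of the 7 members, 0 were called (0.278% of all tested were) and 0 had an unadjusted p of 0.05 or less (6.39% of all), and DESeq2 and limma-voom called 0. edgeR's adjusted p ran from 0.902 to 0.994. The median of the members was 0.16 against 0.00 over all tested, with 6 of 7 above 0 against 50% of all.

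dmPGE2+APAP was last set against Control, a comparison that shares its libraries with both others. miR-10a-5p averaged 3253 ± 629 CPM against 4592 ± 1598, a log2 change of -0.50 (SE 0.26, 95% interval -1.04 to 0.05), and edgeR's adjusted p was 0.481. It became -0.16 without Control replicate 3 and -0.64 without Control replicate 1. miR-125a-5p stood at 111 ± 22.8 against 79.3 ± 26.0 CPM, a log2 change of 0.47 (SE 0.27, -0.10 to 1.04), with edgeR's adjusted p at 0.5004. miR-100-5p and miR-125b-5p both stood at 0.28 (intervals -0.29 to 0.85 and -0.18 to 0.73), and became 0.05 and 0.18 without Control replicate 1. In the other direction, miR-100-5p became 0.68 without Control replicate 3, and without Control replicate 2 miR-125b-5p became 0.49 and miR-125a-5p 0.77. miR-99b-5p at 0.13 (-0.24 to 0.50) was the 1 member whose groups did not overlap, all higher, as were 6.11% of all tested miRNAs. It became 0.21 without dmPGE2+APAP replicate 2. miR-99a-5p stood at 0.06 (-0.30 to 0.43) and became 0.16 without Control replicate 2. miR-10b-5p stood at 0.12 (SE 0.55), which turned to -0.90 (SE 0.29, edgeR adjusted p 0.448) without dmPGE2+APAP replicate 2 and to 0.57 without dmPGE2+APAP replicate 1.

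In this comparison too 0 of 7 members were called, against 0.278% of all tested miRNAs, and 0 had an unadjusted p of 0.05 or less, against 10.6% of all. DESeq2 and limma-voom called 0 here as well. The median of the members was 0.13 against -0.03 over all tested, with 6 of 7 above 0 against 46.1% of all. Library totals moved the median miRNA up by 0.23 here and by 0.25 in APAP against Control, and gave the members medians of 0.41 and 0.22.

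**Figure D4:**
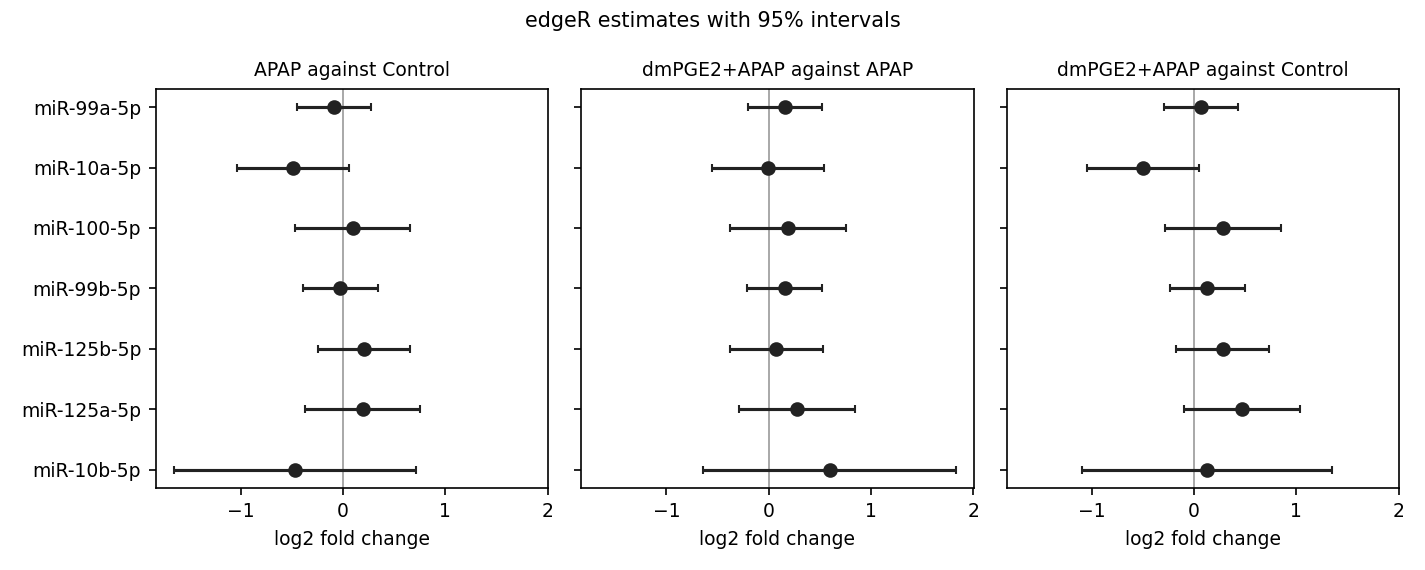
Log2 fold changes of the 7 members from edgeR with 95% intervals, in 1 panel per comparison, with a line at 0. All 21 intervals include 0, and those of miR-99a-5p and miR-99b-5p are the narrowest.

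Ratios between members in the same library were tested next, because they are free of library scaling. Of 7 ratios in 3 comparisons (21 tests), 0 passed, and with 3 against 3 libraries none could, since the exact two-sided permutation test gives 0.1 at the lowest. The lowest exact p was 0.2, which became 0.98 after Benjamini-Hochberg adjustment over the 21. It belonged to the miR-10 sum over the miR-99/100 sum, at a mean log2 of -0.64 ± 0.32 (SD, n = 3) in Control, -1.06 ± 0.32 after APAP and -1.21 ± 0.32 in dmPGE2+APAP, for both differences from Control (-0.42 and -0.57). It also belonged to the miR-125 sum over the miR-99/100 sum, at -4.13 ± 0.24 in Control and -3.90 ± 0.12 in dmPGE2+APAP. All groups overlapped in each of the 21.

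Among members that share a seed, 1 was the more abundant in all 9 libraries. Reads of miR-10a-5p were 29.2 to 240.2 times those of miR-10b-5p, with a median of 146, and the lowest ratio was that of dmPGE2+APAP replicate 2. Reads of miR-99a-5p were 2.62 to 6.45 times those of miR-100-5p, with a median of 3.29, the highest being Control replicate 1. Reads of miR-125a-5p were 0.213 to 0.321 times those of miR-125b-5p.

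**Figure D5:**
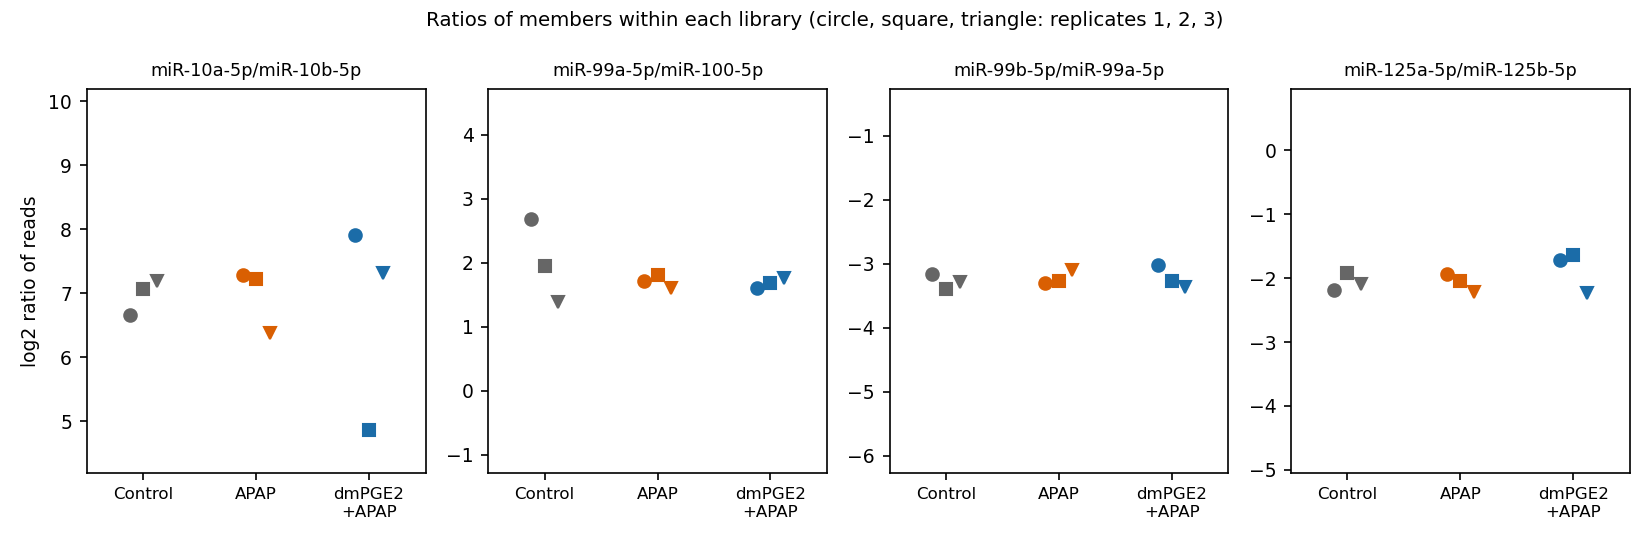
Log2 ratio of reads of 2 members within each library, for 4 pairs, with groups on the x axis and the same height of axis in each panel. The miR-99b-5p to miR-99a-5p ratio is nearly level over all libraries, and dmPGE2+APAP replicate 2 stands apart in the miR-10a-5p to miR-10b-5p ratio.

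The opposite strands of the member hairpins were scarce. All 8 such 3p forms were in the table and 6 were tested. Over the 9 libraries together, miR-99a-5p had 284925 reads and miR-99a-3p 67, and miR-100-5p had 84956 and miR-100-3p 30. The 5p form was 106 times the 3p form for miR-10a, 142 times for miR-10b (12 reads of the 3p form), 39.6 times for miR-99b and 38.5 times for miR-125a.

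The 3p forms of miR-125b are printed because they tell its 2 genes apart, which the 5p form cannot. RefSeq gives them as follows for GRCm38.p6, 5′ to 3′.
miR-125b-1-3p: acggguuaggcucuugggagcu
miR-125b-2-3p: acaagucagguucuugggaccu
The chromosome 16 gene gave most 3p reads in every library. miR-125b-2-3p made up 91.7% ± 0.152 (SD, n = 3) of the 2 forms in Control, 93.1% ± 2.26 after APAP and 92.0% ± 3.18 in dmPGE2+APAP. Over single libraries the share ran from 89.5% (exact Clopper-Pearson 95% interval 84.7 to 93.3, 220 reads being few) to 95.6% (92.4 to 97.7). The genes' share of the 5p form need not be the same and was not measured. The 5p form was 4.43 to 9.45 times the summed 3p forms in Control, 7.65 to 11.8 times in APAP and 8.60 to 9.90 times in dmPGE2+APAP.

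Of the 6 tested 3p forms, edgeR called 0 in each comparison. Over all tested miRNAs it called 0.833% for APAP against Control and 0.278% in each other comparison. The median log2 change of the 3p forms was -0.13 for APAP against Control, with 0 of 6 above 0 against 44.7% of all. For dmPGE2+APAP against APAP it was 0.01, with 3 of 6 above 0 against 50% of all. For dmPGE2+APAP against Control the median was -0.14, with 1 of 6 above 0 against 46.1% of all. miR-99a-3p had the lowest values with dmPGE2, with 13, 9 and 19 reads in Control, 12, 8 and 2 after APAP and 3, 0 and 1 in dmPGE2+APAP. Its log2 change was -1.89 (SE 0.81) against APAP and -2.38 (SE 0.76) against Control, with edgeR's adjusted p at 0.694 and 0.266. These are few reads, and the abundant strand of the same hairpin, miR-99a-5p, stood at 0.16 and 0.06.

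Each of the 3 clusters also makes a let-7 miRNA, a family that restrains growth and marks differentiated cells. let-7a-5p and let-7c-5p have other genes too, so their reads do not stand for these clusters alone. let-7a-5p averaged 3654 ± 271 CPM (SD, n = 3) in Control libraries, 3328 ± 350 after APAP and 2858 ± 360 with dmPGE2 as well. let-7c-5p averaged 1901 ± 167, 1700.2 ± 255 and 1529 ± 221. let-7e-5p, from the compact cluster of miR-99b and miR-125a, averaged 106 ± 33.4, 87.9 ± 10.5 and 91.1 ± 5.97. All 6 let-7 forms listed were in the table, 4 were tested, and edgeR called 0 of 4 in each comparison. Of all tested miRNAs, 0.833% were called for APAP against Control and 0.278% in each other comparison. The lowest let-7 value was that of let-7a-5p in dmPGE2+APAP against Control, a log2 change of -0.35 (SE 0.18) with no overlap of the groups and edgeR's adjusted p at 0.481, where 8.61% of all tested miRNAs lay wholly lower. By library totals in place of TMM, the let-7a-5p groups overlapped.

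Hox clusters hold other miRNAs as well, and these were near the limit of detection while miR-10a-5p was abundant. Of 7 such names, 3 were in the table and 0 passed the filter. Summed over 3 libraries, miR-196a-5p had 1 read in each group, miR-196b-5p had 2, 5 and 2 reads in Control, APAP and dmPGE2+APAP, and miR-615-3p had 2, 2 and 5.

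Patterns over the 9 libraries were compared by Pearson's correlation of log2 CPM as a description with no test. The libraries share 1 scaling and differ in depth, which the correlations carry too. The summed miR-10 group was most like miR-181a-5p (r = 0.92, Spearman 0.82), miR-374b-5p (0.91, Spearman 0.90) and miR-374c-3p (0.90, Spearman 0.90) among 199 other miRNAs. The rows of that miR-374 pair differed by at most 9 reads in any library and stand for 1 pattern. Without the 2 libraries farthest from the median of the group's sum these r were 0.76, 0.96 and 0.96. The miR-99/100 group was most like miR-150-5p (0.82, Spearman 0.75), miR-455-3p (0.68, Spearman 0.60) and miR-203-3p (0.65, Spearman 0.73), with 0.57, 0.54 and 0.79 left. The miR-125 group was most like miR-150-5p (0.90, Spearman 0.57), miR-191-5p (0.80, Spearman 0.68) and miR-31-5p (0.75, Spearman 0.78). These r fell to 0.28, 0.42 and 0.30, so their size depended on the 2 libraries left out. The Spearman values, taken over all 9 libraries, were not recomputed without them.

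Among the members, miR-125a-5p and miR-125b-5p had the highest correlation (r = 0.89, Spearman 0.80), and it was 0.90 with library totals. It was 0.76 without the 2 libraries farthest from the median of miR-125a-5p. miR-100-5p and miR-125b-5p, whose genes share the chromosome 9 cluster, had r = 0.79 (Spearman 0.25). This r became 0.31 without the 2 libraries farthest from the median of miR-100-5p. miR-10a-5p and miR-10b-5p, with 1 seed and 2 Hox clusters, had r = -0.12 (Spearman 0.02), which was -0.04 with library totals. miR-99a-5p and miR-99b-5p had r = 0.23 (Spearman 0.27), but 0.84 with library totals and -0.66 for deviations from the group means, so their correlation depended on the scaling and on the groups. For miR-100-5p and miR-125b-5p library totals gave 0.89.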

How the data were processed

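Small RNA was sequenced from 9 liver libraries. The authors deposited raw read counts for each mature miRNA, per the file headers. The submitters' processing notes name Bowtie and mm10. The sources used here do not give the counter, its annotation, the mismatches allowed or the handling of reads with several matches. TPM values, also deposited, are each count over its library total (relative difference at most 9.63e-06) without a length term, and were not tested. Control columns carry a prefix that no label uses and were assigned by elimination.

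The counts were analysed with edgeR 4.0.16 in R 4.3.3 (TMM, filterByExpr with minimum count 10 and minimum total 15, robust quasi-likelihood, 9 libraries in 1 fit, Benjamini-Hochberg over 360 miRNAs, threshold 0.05). SE derive from the F statistic. Alternatives used DESeq2 1.42.0 and limma 3.58.1, among others. Ratios were tested by exact permutation. Intervals on counts cover counting error only, since PCR copies are not independent molecules. Members and lists were chosen with earlier results of these data known. The named miRNAs were the members, the listed 3p, let-7 and Hox rows, and the 3 most correlated miRNAs per seed group at a mean of at least 10 CPM, with any other marked or given as a marker. The scripts were tested on simulated data with 200 changed miRNAs, whose changes were larger than those estimated for the members in the main fit. Recovery of changes as small as the members' was not tested.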

Additional observations from a re-analysis of the deposited data

How the results depend on the processing

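Under each of 18 alternatives 0 of 7 members were called in any comparison, with the lowest adjusted p at 0.257, and under 11 alternatives 0 ratios passed, which their exact test does not allow. The number of members with an unadjusted edgeR p of 0.05 or less did move. For dmPGE2+APAP against Control it was 2 with library totals, and 1 with no filter or on leaving out any 1 Control or dmPGE2+APAP library. For APAP against Control it was 1 with no filter, without Control replicate 1 or without APAP replicate 2. For dmPGE2+APAP against APAP it was 1 without dmPGE2+APAP replicate 1. Of 378 member values under alternatives, 353 kept their sign and 25 did not, and the cause was not tested. In APAP against Control, library totals gave 0.16 for miR-99a-5p and 0.22 for miR-99b-5p, and leaving out single libraries gave -0.034 to 0.011 for miR-99b-5p and -0.18 to 0.49 for miR-100-5p. In dmPGE2+APAP against APAP, miR-10a-5p, at -0.004, became 0.012 with RLE size factors, 0.014 with limma-voom, 0.013 at a mean of at least 10 CPM, 0.0015 with DESeq2, 0.021 when thinned to equal depth and -0.15 to 0.17 without single libraries. There miR-10b-5p became -0.019 with limma-voom and -0.45 to 1.03 without single libraries. In dmPGE2+APAP against Control, miR-10b-5p became -0.49 with limma-voom, -0.017 with no filter, -0.10 with the replicate block and -0.90 to 0.57 without single libraries, and miR-99a-5p became -0.041 with no filter.

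Calls over all miRNAs moved more, from 3 to between 0 and 12 (DESeq2) for APAP against Control, from 1 to between 0 and 9 (no filter) for dmPGE2+APAP against APAP, and from 1 to between 0 and 2 for dmPGE2+APAP against Control. Same-numbered libraries deviated together by -0.25 to 0.17 in correlation, and 2 of 9 libraries correlated best with their own number, so the numbers were not taken to pair them. With the replicate block the calls became 0, 2 and 1, and 0 members were called. Depth limits the scarce rows, since dmPGE2+APAP replicate 2 held 105 reads of miR-10b-5p and 0 of miR-99a-3p.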

Other observations

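The seed of the miR-125 members is carried by 5 mature miRNAs in the RefSeq table. Of the other 3, miR-351-5p was tested, and it was named after its values were seen. It had 565 reads in all and 7.04 to 17.0 CPM over the libraries. Its log2 change was 0.01 for APAP against Control and 0.29 for dmPGE2+APAP against APAP, with edgeR's adjusted p at 0.997 and 0.913.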
